A study of Mus musculus with 48 samples.

Results

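Joint granulocytes were the cells of the knee joint that the authors' annotation labels Granulocytes, and there were 759 of them among 12096 annotated cells of all organs and 2230 annotated joint cells. They made up most of the 1207 granulocytes of the series, of which 245 came from spleen, 200 from muscle, 3 from lung and 0 from skin. The mice were young adult males of the inbred strain DBA1/J, 4 of them healthy and 6 with collagen-induced arthritis (CIA), which had been immunized with bovine collagen II in complete Freund's adjuvant near the tail base and boosted with collagen in incomplete adjuvant. Joint samples came from 3 healthy mice (H3, H4 and H7) and 5 CIA mice (S1, S3, S5, S6 and S8). The arthritis score was 8 in S1 and S3, 4 to 5 in S5, 3 to 4 in S6, 2 to 3 in S8 and 0 in healthy mice. H3, S1 and S3 carry the prefix 2CIA in their sample titles and the other joint mice the prefix CIA, so that among CIA mice the score and the prefix cannot be told apart. Whole knee joints were cryopreserved, thawed, minced and digested with enzymes, and single cells were captured with Seq-Well, in which each cell shares a nanowell with a barcoded bead and transcripts are counted as unique molecular identifiers (UMIs).

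Neutrophils, the main granulocytes of mouse blood and marrow, build their granules in sequence as they mature in the bone marrow. Primary granule genes such as Mpo and Elane are transcribed in promyelocytes, specific granule genes such as Camp, Ngp and Ltf in myelocytes and metamyelocytes, and the gelatinase granule gene Mmp9 later still, while mature cells carry receptors such as Cxcr2 and transcripts of cytokines and chemokines. S100a8 and S100a9 encode the subunits of calprotectin, a calcium-binding complex that is abundant in the cytoplasm of neutrophils. Neutrophils enter the joint in large numbers in CIA and in human rheumatoid arthritis. Whole knee joints were digested here, and the paper marks bone marrow in joint sections of other mice. Marrow granulocytes may thus be among these cells, and they cannot be told apart from granulocytes that entered the joint.

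The CIA mice gave 723 of the 759 cells (95.3%), and S5 alone gave 489 (64.4%). S1 gave 159 cells, S8 45, H3 24, S3 22, S6 8, H7 7 and H4 5. Values below are therefore given per mouse, from UMIs summed over a mouse's cells and expressed as CPM, the UMIs of a gene per 1000000 UMIs of those cells, and the mice with at least 10 cells (H3, S1, S3, S5 and S8) carry the description. H3 was thus the only healthy joint at that minimum, and values of H4, H7 and S6 rest on 4442, 7425 and 5974 UMIs. The summed UMIs were 23957 in H3, 142544 in S1, 15632 in S3, 523963 in S5 and 42292 in S8, so that 3 UMIs, taken as the floor of what can be read, were worth 125 CPM in H3, 21.0 in S1, 192 in S3, 5.73 in S5 and 70.9 in S8. A cell held 425 to 4197 UMIs, and the median per mouse lay between 675 and 927. Mitochondrial genes took 2.63% to 8.36% of the UMIs of a mouse's joint granulocytes. 0 of the 759 cells shared a barcode with a cell of another joint, muscle or spleen library, against 102 of the 10995 cells of those libraries.

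The label is described by the markers Camp, Ngp, S100a8 and S100a9, and all 4 had UMIs in every one of the 8 joints. Together they took 270485 CPM in H3, 402577 in S1, 418564 in S3, 381998 in S5 and 350988 in S8. Markers of the other granulocyte types were at or near 0. The list of 8 eosinophil genes summed to 0 to 49.1 CPM over the 8 joints with 6 genes at 0 in all of them, and the list of 9 basophil and mast cell genes summed to 0 to 41.7 CPM with 7 at 0. The 4 genes are the markers by which the label is described, so their presence follows from the choice of cells and is no independent check of it.

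The sequences upstream of the leading specific granule genes and of S100a8 and S100a9 are shown because these transcripts set the description that follows. Each is the 250 bases before the gene's RefSeq start on the gene's strand of GRCm38.p6. Capitals mark the letters TTNNGCAA or TTGCNNAA, which are each other's reverse complement, so that both strands were searched. They are the core of sites for C/EBP proteins, the transcription factor family that includes Cebpe, a factor needed for specific granule genes.
Camp: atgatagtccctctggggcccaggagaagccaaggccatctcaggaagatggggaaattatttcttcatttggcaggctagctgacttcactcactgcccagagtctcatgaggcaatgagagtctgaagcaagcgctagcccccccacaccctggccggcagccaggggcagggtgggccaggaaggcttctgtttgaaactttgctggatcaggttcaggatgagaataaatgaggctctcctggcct
Ngp: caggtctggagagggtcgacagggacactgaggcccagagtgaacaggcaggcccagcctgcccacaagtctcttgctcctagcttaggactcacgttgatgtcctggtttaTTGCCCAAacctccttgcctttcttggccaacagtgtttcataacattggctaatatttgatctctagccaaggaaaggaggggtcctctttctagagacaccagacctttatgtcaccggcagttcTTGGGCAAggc
Ltf: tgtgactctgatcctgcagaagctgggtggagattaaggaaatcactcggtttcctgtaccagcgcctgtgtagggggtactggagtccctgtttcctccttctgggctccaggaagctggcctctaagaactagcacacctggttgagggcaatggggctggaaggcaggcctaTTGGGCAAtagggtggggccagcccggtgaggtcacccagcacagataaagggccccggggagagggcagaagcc
Lcn2: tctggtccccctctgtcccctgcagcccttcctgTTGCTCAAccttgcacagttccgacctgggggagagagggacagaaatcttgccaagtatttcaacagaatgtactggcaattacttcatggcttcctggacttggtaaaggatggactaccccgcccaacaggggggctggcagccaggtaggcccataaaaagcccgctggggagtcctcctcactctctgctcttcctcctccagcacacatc
S100a8: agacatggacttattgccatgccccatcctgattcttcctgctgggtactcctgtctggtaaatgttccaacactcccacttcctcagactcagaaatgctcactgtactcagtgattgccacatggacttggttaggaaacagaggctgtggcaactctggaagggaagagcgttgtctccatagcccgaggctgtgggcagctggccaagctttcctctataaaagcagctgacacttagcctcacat
S100a9: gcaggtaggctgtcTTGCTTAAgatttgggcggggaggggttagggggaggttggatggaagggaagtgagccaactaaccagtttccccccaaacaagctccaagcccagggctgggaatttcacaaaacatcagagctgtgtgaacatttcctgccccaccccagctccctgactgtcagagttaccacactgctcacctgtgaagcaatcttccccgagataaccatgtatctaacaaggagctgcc
The windows were chr9:109849457-109849706 (minus strand) for Camp, chr9:110419558-110419807 (plus strand) for Ngp, chr9:111019042-111019291 (plus strand) for Ltf, chr2:32387740-32387989 (minus strand) for Lcn2, chr3:90668821-90669070 (plus strand) for S100a8 and chr3:90695722-90695971 (minus strand) for S100a9. Ngp had 2 matches, starting 138 and 11 bases before the start, Ltf had 1 at 75 bases, Lcn2 had 1 at 216 bases and S100a9 had 1 at 236 bases. Camp and S100a8 had 0 matches in these windows. Of 32851 such windows, 4.88% held TTNNGCAA, 5.14% held TTGCNNAA and 9.56% held either, where a window with both was counted once. The matches are a description of letters and were not tested for binding.

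Granulocytes were a larger share of the joint in CIA mice than in healthy mice. The share of annotated joint cells was 13.9% in H3, 3.14% in H4 and 9.72% in H7, with exact 95% binomial intervals of 9.10 to 19.9, 1.03 to 7.19 and 4.00 to 19.0. It was 26.3% in S1 (22.8 to 29.98), 17.5% in S3 (11.3 to 25.2), 51.2% in S5 (48.0 to 54.4), 14.0% in S6 (6.26 to 25.8) and 54.2% in S8 (42.9 to 65.2). All 5 CIA joints lay above the highest healthy joint, although S6 and H3 differed by less than their intervals. The means were 8.91% ± 5.41 (SD, n = 3) and 32.6% ± 18.9 (SD, n = 5), a difference of 23.7 percentage points (p = 0.0357 by a two-sided exact permutation test, below which 3 against 5 mice cannot go). After Benjamini-Hochberg adjustment over the 13 cell types of the joint the exact permutation p was 0.31, which did not pass the threshold of 0.05. It could pass only if most of the 13 cell types had the smallest possible p, so this outcome was nearly fixed by the design. The order held within each prefix, with 13.9% against 26.3% and 17.5% for 2CIA and with 3.14% and 9.72% against 51.2%, 14.0% and 54.2% for CIA. With all sequenced joint cells as the denominator the difference was 21.7 points, and with the separate label Neutrophils added, which held 33 joint cells, it was 24.8 points.

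**Figure D1:**
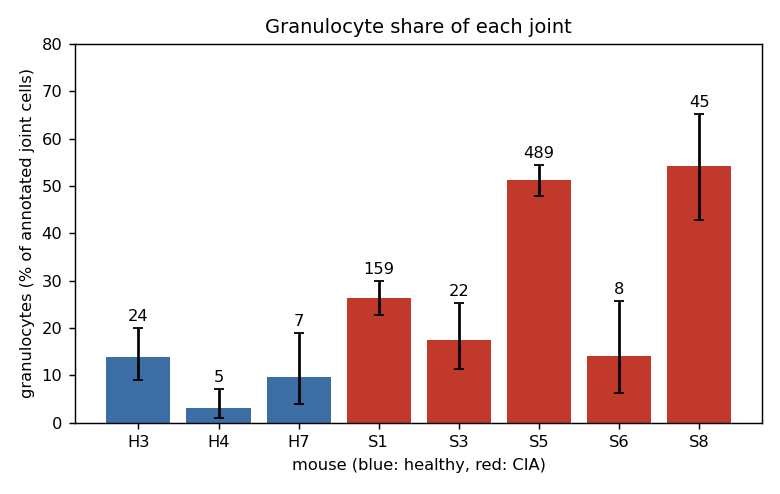
Granulocytes as a percentage of annotated joint cells in each mouse (bars) with exact 95% binomial intervals (whiskers), with the number of granulocytes above each bar. The 3 healthy joints (blue) lie at 3.14% to 13.9% and the 5 CIA joints (red) at 14.0% to 54.2%.

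S100a8 and S100a9 dominated these cells. Together they took 22.3% of UMIs in H3, 36.3% in S1, 38.6% in S3, 32.2% in S5 and 31.6% in S8, and 30.4% to 33.4% in the mice with under 10 cells. S100a8 stood at 140210 CPM in H3, 259359 in S1, 292669 in S3, 220222 in S5 and 237917 in S8, and S100a9 at 83191, 103905, 93718, 102099 and 77911 CPM in the same order. H3 was lowest of the 5 mice for S100a8 but not for S100a9. The 10 most abundant genes took 36.2% to 54.0% of UMIs over the 8 joints. UMIs count transcript ends, so levels were compared between genes without division by length.

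After calprotectin came the specific granule transcripts Camp, which encodes the cathelicidin antimicrobial peptide, at 21767 ± 6144 CPM (SD, n = 5), and Ngp, neutrophilic granule protein, at 20916 ± 5213 CPM. Camp was at 26339 CPM in H3, 19257 in S1, 16505 in S3, 30113 in S5 and 16623 in S8, and Ngp at 20746, 20057, 15673, 29565 and 18538 CPM. S5 was highest and S3 lowest for both, and H3 lay within the range of the CIA mice. Lyz2 (lysozyme) followed at 11991 CPM, Fth1 (ferritin heavy chain) at 11002, Actb (beta-actin) at 10220 and Tmsb4x (thymosin beta 4, which binds actin monomers) at 8543. Retnlg, a resistin-like secreted protein of neutrophils, had a mean of 5002 CPM, Wfdc21 4657, Ltf (lactoferrin) 3598, Lcn2 (lipocalin 2, which binds bacterial siderophores) 2581, Srgn (serglycin, a granule proteoglycan) 2409 and the chemokine Cxcl2 2062 CPM. The haemoglobin transcript Hbb-bs ranked 5 in this order, and it was also abundant in joint cells of other types.

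**Figure D2:**
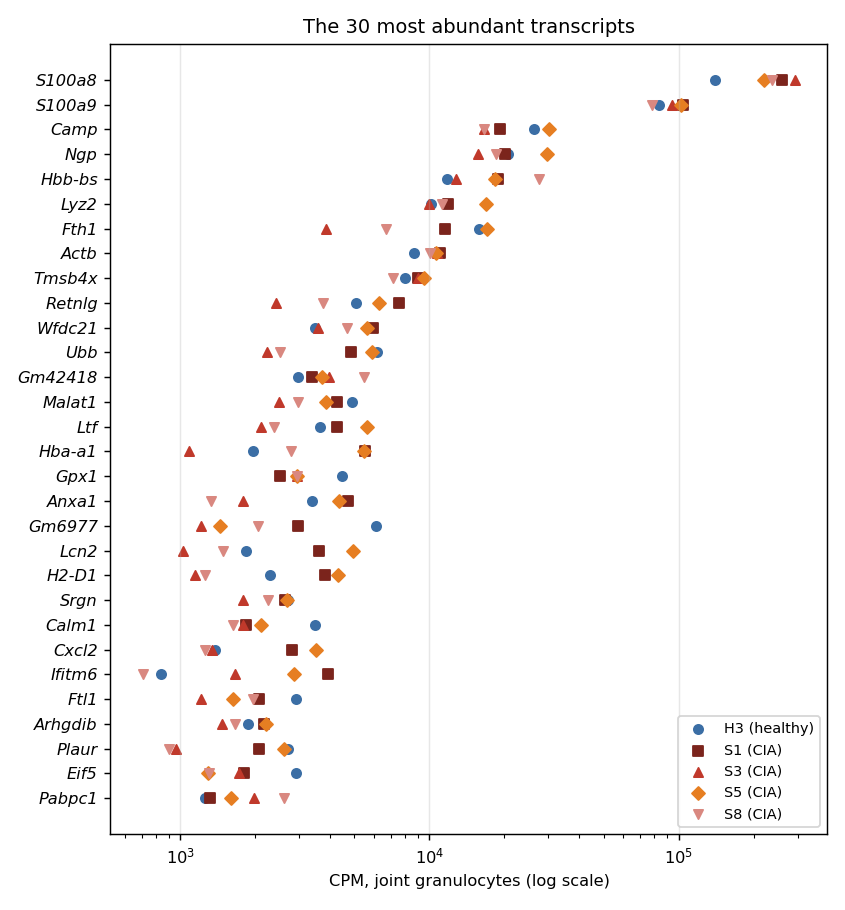
The 30 most abundant transcripts of joint granulocytes, leaving out mitochondrial and ribosomal protein genes, ordered by the mean over the 5 mice with at least 10 cells, with 1 point per mouse on a log scale of CPM. S100a8 and S100a9 stand at 77911 CPM or above in each mouse, and Camp and Ngp at 15673 to 30113 CPM.

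The joint granulocytes carried specific granule transcripts at high level and primary granule transcripts at low level. The 10 specific granule genes (Camp, Ngp, Ltf, Lcn2, Chil3, Hp, Cd177, Olfm4, Itgb2l and Pglyrp1) summed to 56434 CPM in H3, 51794 in S1, 38191 in S3, 76042 in S5 and 41355 in S8. The 6 primary granule genes (Mpo, Elane, Prtn3, Ctsg, Ms4a3 and Ctsc) summed to 417, 168, 512, 389 and 875 CPM in the same order. Camp and Ngp, which are also markers of the label, were most of each specific granule sum. The height of that sum thus follows largely from the choice of cells. Ltf, which is not such a marker, was at 2111 to 5607 CPM in these mice. Elane, neutrophil elastase, was at 41.7 CPM in H3, 42.1 in S1, 128 in S3, 132 in S5 and 402 in S8, and Mpo, myeloperoxidase, at 125, 14.0, 0, 30.5 and 70.9 CPM. The H3 and S3 values of Elane and the Mpo values of H3, S1, S3 and S8 rest on 3 UMIs or fewer, so only S1, S5 and S8 place Elane above the floor. S8, with the lowest arthritis score of the CIA mice, had the highest sum of primary granule transcripts, and S3, with score 8, the next highest.

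The other specific granule genes were at lower level than Camp and Ngp in every mouse. Ltf stood at 3632 CPM in H3, 4251 in S1, 2111 in S3, 5607 in S5 and 2388 in S8, and Lcn2 at 1837, 3599, 1024, 4955 and 1490 CPM. Chil3, a chitinase-like protein, was at 1419, 695, 704, 1695 and 709 CPM and the surface protein Cd177 at 584, 842, 640, 1008 and 544 CPM. Olfm4, which marks a subset of neutrophils, was at 0, 77.2, 64.0, 147 and 0 CPM. S5 was the highest of the 5 mice for Ltf, Lcn2, Chil3, Cd177 and Olfm4.

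The gelatinase granule list held Mmp8, Mmp9, Mmp25, Adam8 and Slc11a1, of which Mmp8 encodes neutrophil collagenase, a protein of specific granules. The 5 genes summed to 626 CPM in H3, 1389 in S1, 192 in S3, 1313 in S5 and 449 in S8, and to 4854 CPM in the 8 cells of S6. Without Mmp8 the sums were 125, 491, 0, 544 and 94.6 CPM in H3, S1, S3, S5 and S8, with 3 UMIs in H3 and 4 in S8, so that Mmp8 was most of the list in H3, S1, S3, S5 and S8. Mmp8 was at 501, 898, 192, 769 and 355 CPM in H3, S1, S3, S5 and S8, and Mmp9, gelatinase B, at 41.7, 267, 0, 212 and 23.6 CPM. Among receptors of mature neutrophils, Cxcr2, the receptor of Cxcl2, was at 41.7, 217, 256, 172 and 23.6 CPM. Csf3r, the receptor of granulocyte colony-stimulating factor, was at 41.7, 84.2, 0, 103 and 0 CPM. The 15 surface receptor genes measured, of which 11 had UMIs in each of these mice, summed to 3757, 4967, 2431, 5394 and 2625 CPM. S3 and S8 were the lowest mice for the receptor list, and S1 and S5, with the most cells, were the highest.

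Proliferation transcripts were present in every mouse. The 15 proliferation genes measured summed to 3840 CPM in H3, 2119 in S1, 4030 in S3, 2855 in S5 and 3287 in S8, of which Hmgb2, a chromatin protein of dividing and immature cells, took 2087, 1501, 1535, 1657 and 1513 CPM. Mki67, which marks cycling cells, was at 125, 35.1, 640, 85.9 and 213 CPM. S1 was lowest and S3 highest of the 5 mice for the list and for Mki67.

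Transcripts of cytokines, chemokines and their regulators were read next. The 16 inflammatory genes summed to 6261 CPM in H3, 7387 in S1, 3007 in S3, 9111 in S5 and 3239 in S8, and to 15902 CPM in the 8 cells of S6. Cxcl2, a neutrophil-attracting chemokine, was at 1377, 2820, 1343, 3514 and 1253 CPM in the 5 mice. Nfkbia, the inhibitor of NF-kappa-B, was at 1503, 1459, 192, 2126 and 615 CPM, and Cd14, a co-receptor for bacterial lipopolysaccharide, at 1962, 1487, 640, 1575 and 402 CPM. Il1b, which encodes interleukin-1 beta, stood at only 167, 210, 128, 160 and 23.6 CPM. S3 and S8 were the lowest mice for Nfkbia and Cd14, and H3 was the highest for Cd14. The NADPH oxidase genes summed to 1586, 3241, 1663, 3804 and 2577 CPM.

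**Figure D3:**
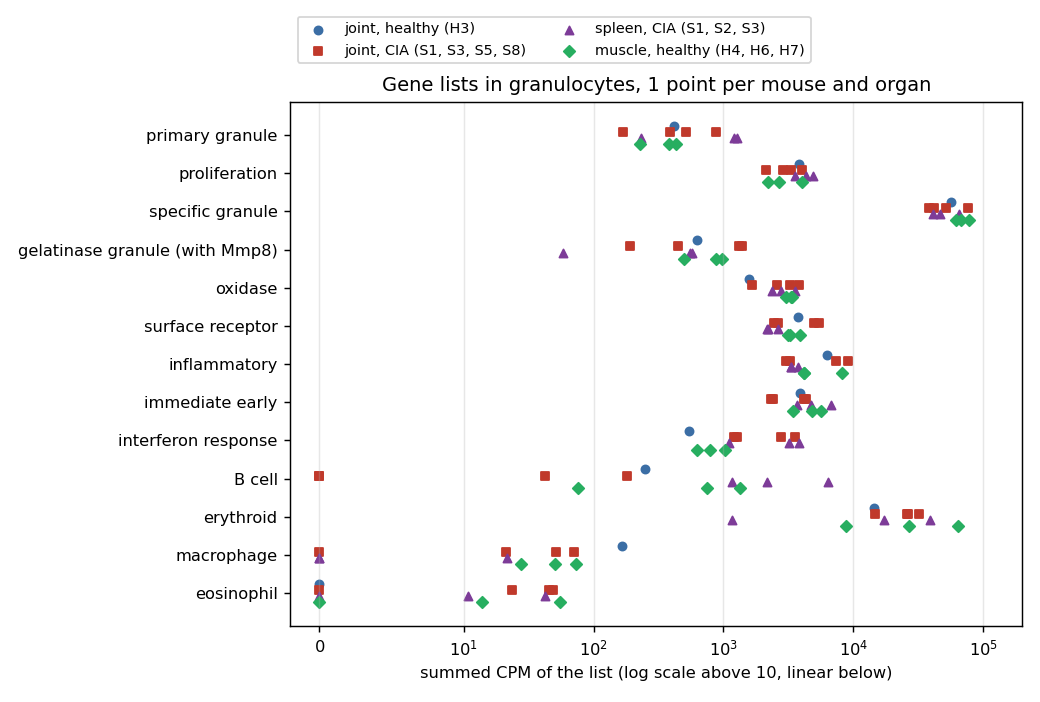
Summed CPM of 13 gene lists in granulocytes, 1 point per mouse and organ with at least 10 cells, on an axis that is linear below 10 CPM and logarithmic above. Specific granule sums (38191 to 76042 CPM in the joint) stand far above primary granule sums (168 to 875 CPM), and the B cell list is higher in the 3 spleens (1162 to 6355 CPM) than in the 5 joints (0 to 250 CPM). The specific granule sums of the joint are mostly Camp and Ngp, which are also markers of the label.

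Cells within a mouse spanned a range of specific granule content. The cells of each mouse were ranked by the share of their UMIs on the 10 specific granule genes and split into 3 groups of about equal size, so the groups are ranges and not cell types. The median share was 2.48% in the lowest and 8.09% in the highest group of H3, 1.88% and 8.02% in S1, 2.74% and 4.82% in S3, 2.58% and 10.4% in S5 and 2.39% and 6.35% in S8. Many cells were close to a boundary between groups, with 7 of 24 cells in H3, 35 of 159 in S1, 15 of 22 in S3, 98 of 489 in S5 and 14 of 45 in S8 within 0.5 percentage points of one. The values that follow are per 1000000 UMIs outside the specific granule genes, S100a8 and S100a9, and no test was made along this ranking.

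Lyz2, Wfdc21, Anxa1 and Hmgb2 were higher in the group with the highest specific granule share in 5 of 5 mice. Lyz2 went from 10049 in the lowest to 14587 in the highest group of H3, from 10066 to 29924 in S1, from 12223 to 20150 in S3, from 14352 to 38690 in S5 and from 11186 to 22834 in S8. Anxa1, annexin A1, went from 3848 to 12302 in S1 and from 3725 to 9274 in S5, and Hmgb2 from 1577 to 3535 in S5. The oxidase genes were also higher in the highest group in 5 of 5 mice, and the proliferation genes in 4 of 5, with S3 the other way. S100a8 and S100a9 together took more UMIs in the highest group in 5 of 5 mice, such as 33.6% against 28.3% in S5.

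Retnlg, Cxcl2, Srgn and Fth1 were higher at the other end of the ranking. Retnlg was at 18048 in the lowest and 1250 in the highest group of H3, 26662 and 4595 in S1, 3127 and 6148 in S3, 23233 and 2947 in S5 and 7135 and 4229 in S8, so that S3 was the exception among 5 mice. Cxcl2 was at 4102 and 695 in H3, 10105 and 1520 in S1, 2274 and 3074 in S3, 14117 and 1355 in S5 and 2290 and 967 in S8, with the same exception. Fth1 and Srgn were higher in the lowest group in 5 of 5 mice, and the inflammatory list in 4 of 5. After each cell was thinned to 400 UMIs these counts of mice were the same for all the genes and lists named here but Srgn, for which it was 4 of 5. Depth moved with the ranking, since the median UMIs of a cell were higher in the highest group in 4 of 5 mice (674 against 1168 in S5). Haemoglobin genes moved with it in S1 and S5, where the erythroid list summed to 109526 and 95026 in the lowest and 13026 and 15455 in the highest group, although the medians over cells were 14493 and 15790 against 12195 and 12024. The part of depth and of haemoglobin in the pattern was not tested beyond thinning.

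**Figure D4:**
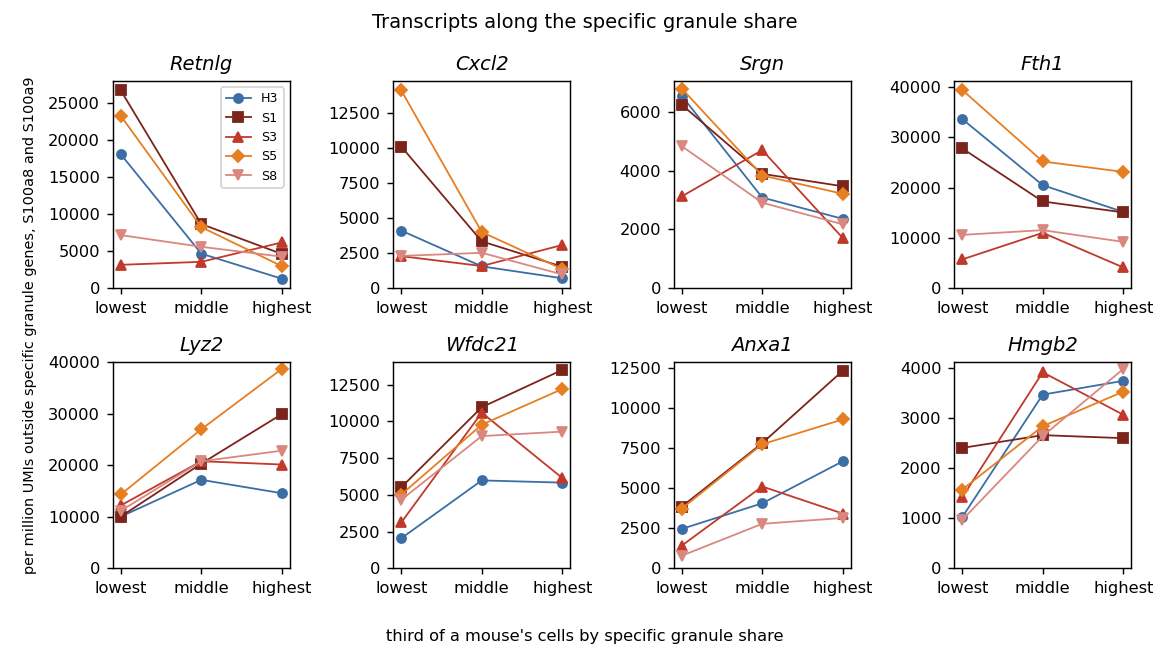
Levels of 8 transcripts in 3 groups of cells per mouse, ordered by the share of a cell's UMIs on specific granule genes, per 1000000 UMIs outside specific granule genes, S100a8 and S100a9, with 1 line per mouse. Retnlg and Cxcl2 end lower than they start in 4 of the 5 mice (in S3 they end higher), and Lyz2 ends higher than it starts in 5 of 5.

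Transcripts of other cells were found at low level, apart from haemoglobin. The sums are ranges over the 8 joints, and genes at 0 were counted over the 5 joints with at least 10 cells. The erythroid list summed to 6026 to 31897 CPM with 0 of 6 genes at 0, and the fibroblast list to 378 to 1313 CPM with 0 of 6. For the macrophage list it was 0 to 539 CPM with 1 of 7 at 0, and for the T cell list 0 to 335 CPM with 4 of 5. The B cell list summed to 0 to 250 CPM with 0 of 6 at 0, and the chondrocyte list to 0 to 225 CPM with 0 of 4. The fibroblast list was at 0 in the granulocytes of all 3 CIA spleens with at least 10 cells. Granulocyte transcripts were in turn found in other joint cells. S100a8 stood at 588 to 42747 CPM in macrophages, 1006 to 22016 CPM in fibroblasts and 3707 to 73824 CPM in endothelial cells of a joint. These values lay below its level in granulocytes of every joint. The highest was that of the endothelial cells of S5, which also had 9217 CPM of Camp. In cells labelled T cells, Elane stood at 356, 1281, 2263 and 1433 CPM in H3, S1, S3 and S5, and at 0 in H4 and S6. In granulocytes of H3, S1, S3 and S5 it was at 41.7, 42.1, 128 and 132 CPM. The low primary granule level thus describes cells under the Granulocytes label, and not all joint cells with such transcripts. The 29 joint cells of S5 labelled Neutrophils had 114831 CPM of S100a8, 12052 of Camp, 15027 of Ngp and 4971 of Retnlg, against 220222, 30113, 29565 and 6273 CPM in the cells of S5 labelled Granulocytes.

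Between CIA and healthy joints no gene passed the test. The 4 CIA mice with at least 10 cells were set against H3, which was assumed to vary like the CIA mice because it was alone in its group, and edgeR's quasi-likelihood test called 0 of 837 genes (0% called) at an adjusted p under 0.05. By unadjusted p under 0.05 it gave 57 genes, and DESeq2 called 0. The 16 lists with a gene in the test had 0 calls, and for the other 8 no gene was tested. The median log2 fold change over all tested genes was 0.20 with TMM factors, 0.06 with RLE factors and -0.36 with plain library size, and the values of single genes and lists are to be read against it. S100a8 had a log2 fold change of 1.28 (SE 0.38, edgeR adjusted p = 0.46) and each of the 4 CIA mice exceeded H3. H4 and H7, with few cells, had 239081 and 203771 CPM of S100a8, so that the low value of H3 was not shared by them. The 9 specific granule genes tested had a median of 0.45 with 7 of 9 positive, the 6 oxidase genes 1.30 with 6 positive, the 13 receptors 0.83 with 12 positive and the 6 inflammatory genes 0.34 with 5 positive. These signs rest on H3 as the only healthy joint. Oxidase sums were 3827 and 2694 CPM in H4 and H7, and 1663 to 4352 CPM over the CIA joints with S6. Receptor sums were 3827 and 3771 against 2431 to 7365 CPM, and inflammatory sums 6078 and 3636 against 3007 to 15902 CPM. Between H3 and the 4 CIA mice, 15.8% of all tested genes were higher and 36% were lower in every CIA mouse.

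When all 8 joints were taken, with 5 cells or more, interferon response was the only list of 24 whose CIA sums all lay above the healthy ones. The 14 genes summed to 543 CPM in H3, 900 in H4 and 135 in H7, and to 3564 in S1, 1279 in S3, 2762 in S5, 4185 in S6 and 1206 in S8. The sum of H7 was 1 UMI and that of H4 was 4. The macrophage list lay below the healthy joints in every CIA joint by these sums, but rested on 4, 1 and 4 UMIs in H3, H4 and H7 and on 0 in S6, so its order cannot be read. Granulocytes of the CIA spleens had interferon response sums of 3838, 3178 and 1098 CPM in S1, S2 and S3, and those of healthy muscle 1030, 621 and 794 CPM in H4, H6 and H7. Slfn4, an interferon-inducible gene of myeloid cells, was at 167 CPM in H3 and 835, 384, 662 and 355 CPM in S1, S3, S5 and S8. Ifi27l2a, another interferon-inducible gene, was at 0 in H3 and at 786, 256, 542 and 142 CPM in the same CIA mice, a mean at least 3.44-fold higher than the level of 3 UMIs in H3. The level of 3 UMIs was 675 CPM in H4, 404 in H7 and 502 in S6, and a value at or below it cannot be placed in those joints. In this set of 8 joints 2.98% of 168 genes were higher and 2.38% were lower in every CIA joint than in every healthy one. The 5 that were higher were Wfdc17, Slfn4, Samd9l, Rpl37a and mt-Co1, and the 4 that were lower were Ubb, Gm1821, Gm8203 and Gm8797, all but Slfn4 and Ubb chosen for mention after their values were seen.

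Wfdc17, a secreted protein with a whey acidic protein domain that is expressed by myeloid cells, was followed in all 8 joints. It was at 125 CPM in H3, 0 in H4 and 0 in H7, and at 2133 in S1, 3199 in S3, 592 in S5, 502 in S6 and 638 in S8, of which the last 3 lie under the level of 3 UMIs in H4. Its log2 fold change against H3 was 4.08 (SE 1.23, edgeR adjusted p = 0.46). It was called only when joints with 5 cells or more were fitted with the title prefix as a term (4.90, SE 0.80, edgeR adjusted p = 0.0036, 1 of 168 genes called), an alternative chosen after seeing the data. In the mice of the prefix 2CIA alone (S1 and S3 against H3), S100a8 had a log2 fold change of 1.45. That value rests on H3 as the only healthy joint, and H4 and H7 did not enter it. Without S8, and with plain library size, the 1 gene called was Gm24098, which was lower in CIA and is named only as that call.

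Among CIA joints no gene passed the test between the mice with score 8 (S1 and S3) and those with lower scores (S5 and S8). edgeR called 0 of 1005 genes (0% called), with 3 genes by unadjusted p under 0.05, and DESeq2 called 0. Wfdc17 was at 2133 and 3199 CPM with score 8 and at 592 and 638 CPM with lower scores, a log2 difference of 2.10 (SE 0.65, edgeR adjusted p = 1.0). Of all genes tested, 8.76% were higher and 11.1% lower in both mice with score 8 than in both others. The 9 specific granule genes had a median of -0.29 with 2 positive, and the median of all tested genes was -0.05. Without S1 the 1 gene called was Dqx1, likewise named only as that call. Score and title prefix cannot be told apart in this comparison.

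Joint granulocytes of CIA mice (S1, S3, S5 and S8) were compared with spleen granulocytes of CIA mice (S1, S2 and S3). Hmox1, Ftl1, Fth1, Alas1, Srgn, Plaur and Clec4d were among the genes higher in the joint, and the B cell genes Igkc and Ighm, Cd74 and H2-Aa were among those lower. edgeR called 41 of 442 genes (9.28% called), 26 higher in the joint (5.88%) and 15 lower (3.39%), with 63.4% of calls higher. With plain library size it called 51, of which 74.5% were higher. The spleen was pressed through a strainer and lysed for red cells without enzyme, so organ and dissociation cannot be told apart, and the 3 spleens all carry the prefix 2CIA. S1 and S3 gave both organs, and with these mice alone and the mouse as a block 5 genes were called, all among the 41 and all lower in the joint (Igkc, Ighm, Cd74, Gm26917 and Gm23935). In the mice of the prefix 2CIA alone 24 genes were called, 19 of them among the 41.

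Hmox1, which encodes the haem-degrading enzyme haem oxygenase 1, had the largest difference among the genes higher in the joint. It stood at 505 CPM in S1, 512 in S3, 878 in S5 and 520 in S8 in the joint, and at 42.4, 21.5 and 0 CPM in the spleens of S1, S2 and S3. The spleen values rest on 2, 4 and 0 UMIs, where 3 UMIs were worth 63.6, 16.1 and 173 CPM. The size of the difference is therefore uncertain. The log2 fold change was 4.52 (SE 0.58, edgeR adjusted p = 0.00098), and with the block the edgeR adjusted p was 0.12. The ferritin light chain Ftl1 was at 2070, 1215, 1624 and 1963 CPM in the joints and at 127, 242 and 635 CPM in the spleens, a log2 fold change of 2.49 (SE 0.51, edgeR adjusted p = 0.0091). Fth1, the heavy chain, had a log2 fold change of 2.16 with 11561, 3838, 17098 and 6692 CPM in joints and 1696, 1619 and 2715 CPM in spleens. Alas1, the first enzyme of haem synthesis, chosen for mention after its value was seen, had a log2 fold change of 1.94. All 4 joints lay above all 3 spleens for these 4 genes.

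Other genes higher in the joint are given singly, and the fixed lists of receptors and of inflammatory genes follow further on. Srgn was at 2624, 1791, 2672 and 2246 CPM in joints and 424, 823 and 635 CPM in spleens (log2 fold change 1.78, SE 0.38, edgeR adjusted p = 0.011). Plaur, the urokinase receptor, had a log2 fold change of 2.24, C5ar1, the receptor of the complement fragment C5a, 1.59, Il1f9, an interleukin-1 family cytokine also called interleukin-36 gamma, 2.24, and the C-type lectin receptor Clec4d 2.48. Clec4d was at 414, 192, 582 and 544 CPM in joints and 106, 64.5 and 57.8 CPM in spleens. Cxcl1, a neutrophil-attracting chemokine, had a log2 fold change of 2.96, but its lowest joint (47.3 CPM in S8) lay below its highest spleen (57.8 CPM in S3). C5ar1, Il1f9 and Cxcl1 were chosen for mention after their values were seen. Among the called genes without overlap, the other largest differences upward were Ifit1bl2 (4.47), Gm15590 (4.13), Gm18867 (3.37), Ankrd22 (2.80), Gm6977 (2.61), the proton pump subunit Atp6v1e1 (2.32) and the cytochrome P450 reductase Por (2.26). Ifit1bl2, Gm15590 and Gm18867 had only 4, 3 and 5 UMIs over all spleens together, so the size of their differences is uncertain. Retnlg was at 7520, 2431, 6273 and 3736 CPM in joints and 2036, 1845 and 289 CPM in spleens, but did not pass (log2 fold change 1.64, edgeR adjusted p = 0.081).

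The genes that were lower in the joint began with B cell and antigen presentation transcripts. Igkc, the kappa light chain, was at 21.0, 0, 72.5 and 0 CPM in joints and at 1230, 672 and 4448 CPM in spleens (log2 fold change -5.73, SE 0.78, edgeR adjusted p = 0.0010). Ighm, the mu heavy chain, had a log2 fold change of -4.47, Cd74, the invariant chain of MHC class II, -3.50 and H2-Aa, an MHC class II chain, -3.35. The whole B cell list moved with the organ, with 1162 to 6355 CPM in the 3 spleens against 0 to 179 CPM in the 4 joints, and its part in these calls was not tested. The immediate early phosphatase gene Dusp1 had a log2 fold change of -1.56 and the transcription factor gene Klf2 -1.45. Rpph1, the RNA of ribonuclease P, had -2.50, Rprl3 -2.39, n-R5-8s1 -2.53, Gm26917 -3.49, Gm23935 -3.21 and Lars2 -1.59.

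**Figure D5:**
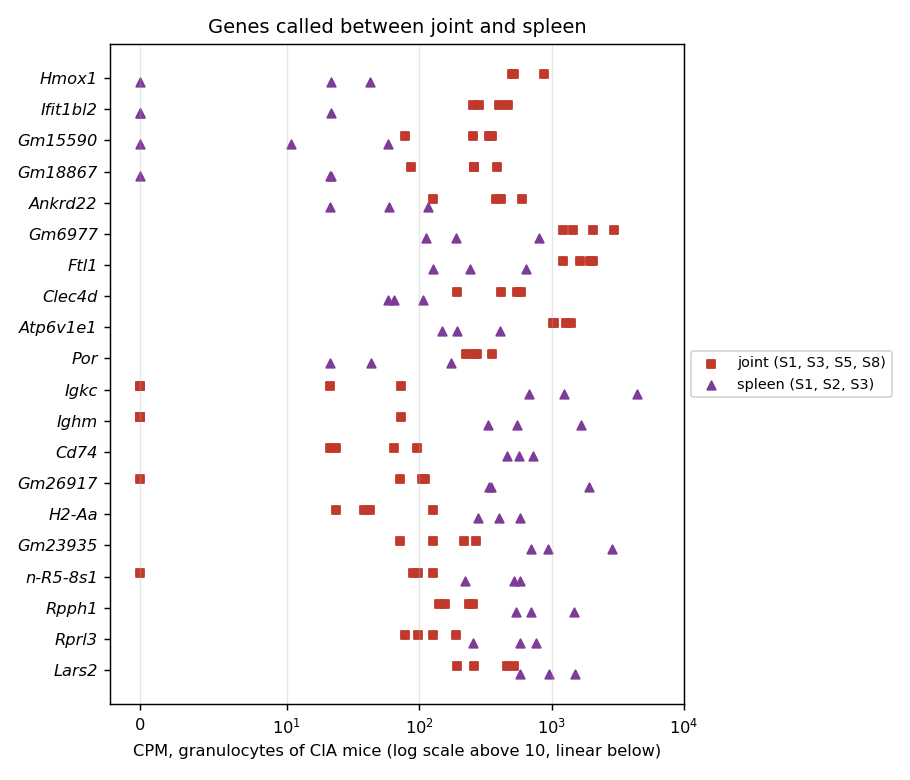
CPM of the 10 genes with the largest difference in each direction among those called between joint and spleen granulocytes of CIA mice without overlap, 1 point per mouse, on an axis that is linear below 10 CPM and logarithmic above. Hmox1 stands at 505 to 878 CPM in the 4 joints and at 0 to 42.4 CPM in the 3 spleens, and Igkc at 0 to 72.5 against 672 to 4448 CPM.

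Granule genes did not pass between joint and spleen. Of the 9 specific granule genes tested 0 were called, with a median log2 fold change of -0.18 beside 0.01 for all tested genes. The primary granule genes had 0 of 2 called with a median of -0.97, the oxidase genes 0 of 5 with -0.37, the inflammatory genes 0 of 5 with 1.11 and the interferon response genes 0 of 3 with -0.27. Beside 9.28% of all tested genes called, the receptor list had 1 of 8 called (Clec4d), the immediate early list 1 of 6 (Dusp1), the transcription factor list 1 of 3 (Klf2) and the B cell list 2 of 2 (Igkc and Ighm). The specific granule list summed to 46099, 65350 and 41074 CPM in the spleens of S1, S2 and S3, which overlapped the joints.

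Levels in healthy granulocytes, which were not fitted in that test, are given beside these for 3 genes. Hmox1 was at 1169 CPM in the joint of H3 and at 226, 1260 and 585 CPM in the muscles of H4, H6 and H7, which had been digested with enzyme. Ftl1 was at 2922 CPM in the joint of H3 and at 1357, 2192 and 1519 CPM in the same muscles, and Igkc at 83.5 CPM and at 25.1, 438 and 878 CPM. They are given as levels only, and nothing is drawn from setting them against the 3 spleens, since the genes were chosen by those spleens. Of the 41 called genes, 37 had joint and spleen values that did not overlap, beside 14% of all tested genes that were higher and 7.24% that were lower without overlap. The 41 were called from these same values, so their lack of overlap follows largely from that choice and is no support for the calls.

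The count of genes called between joint and spleen depended on single libraries. It was 17 without the joint of S1, 65 without that of S3, 28 without that of S5 and 101 without that of S8, and 11, 15 and 67 without the spleens of S1, S2 and S3. With joints and spleens of 5 cells or more in the prefix CIA alone, 5 genes were called, all higher in the joint (Retnlg, Fth1, Gm6977, Hbb-bs and Ftl1). The signs of all 41 genes were kept in every alternative that tested them. Igkc, Cd74 and Ifit1bl2 passed in all of 17, 14 and 13 alternatives, and 32 of the 41 passed in at least as many alternatives as they failed.

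Between joint and muscle granulocytes of healthy mice no gene passed the test. The joint of H3 was set against the muscles of H4, H6 and H7 and was assumed to vary like them. H3 carries the prefix 2CIA and the 3 muscle mice the prefix CIA, so organ and prefix cannot be told apart. edgeR called 0 of 768 genes (0% called), with 97 genes by unadjusted p under 0.05 and 0 called by DESeq2. Retnla, a resistin-like protein of activated macrophages, was at 835 CPM in H3 and 102 ± 33.3 CPM in muscle (SD, n = 3), a log2 fold change of 2.74 (SE 0.52, edgeR adjusted p = 0.069), and was chosen for mention after its value was seen. The 9 specific granule genes tested had a median of -0.53 with 2 positive, beside -0.17 for all tested genes, and their sums were 56434 CPM in H3 and 62137, 78057 and 67869 CPM in the muscles. The primary granule sums were 417 CPM in H3 and 226, 384 and 432 CPM in the muscles. Without overlap, 38.4% of all tested genes were higher and 29.6% lower in the joint. The count of calls was 41, 11 and 15 without the muscle of H4, H6 and H7, so that it moved with each of them.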

How the data were processed

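Single-cell RNA of 48 samples was measured with Seq-Well, and granulocytes of joint, spleen and muscle were used here. Reads were aligned by the authors to GRCm38 with STAR. The deposited values are raw UMI counts of each gene in each cell, with cell type labels that the authors made from reference profiles and denoised data. The submitters' notes name bcl2fastq, Picard and STAR, and the builds GRCh38 and mm9. The authors had removed cells above a maximum of transcripts, and no doublet caller was run here. The 2245 cell columns of lung and skin were not used in any value beside the counts of labelled cells.

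UMI counts of cells labelled Granulocytes were summed per mouse and organ, with at least 10 cells (5 or 20 as alternatives). The sums were fitted in R 4.3.3 with edgeR 4.0.16 (glmQLFit and glmQLFTest), using TMM factors, filterByExpr and Benjamini-Hochberg adjustment at 0.05, with DESeq2 1.42.0 as the alternative tool. Shares were compared by exact permutation over mice in Python 3.11.15. Binomial intervals (Clopper-Pearson) and floors of 3 UMIs cover counting error only. The mice are separate animals, and p-values measure the spread between their libraries. In the main joint against spleen fit S1 and S3 entered both groups without a block, so its libraries are not all independent. Where H3 was alone in its group, the spread of that group was not measured. Samples of S1 and S3 from joint and spleen come from the same animals, and over 442 genes their deviations from the group means correlated with r = 0.245 and 0.294.

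The genes named were those of 24 lists, the 30 most abundant transcripts, and at most 10 called genes per direction and comparison with the largest fold change and no overlap. The text marks genes outside this rule. The members and lists were chosen with earlier results of these data known. The Granulocytes label, gene lists and comparisons are thus no independent evidence of direction. In simulated data with a log2 change of 2, edgeR recovered 30.1% of 123 changed genes for CIA against healthy, 100% of 71 for joint against spleen, 71.3% of 157 for the scores and 42.5% of 127 for joint against muscle, and 5.13%, 1.39%, 3.45% and 12.9% of the calls were false. The simulation set the same dispersion for every gene, so these shares hold for that setting and not for the spread between these mice. Sequences were taken from RefSeq tables of GRCm38.p6.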

Additional observations from a re-analysis of the deposited data

Results flagged for a closer look

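Among the 43 groups of values that were checked for a sample far from the others, 1 was past the critical value, and chance gives about 1 in 20. Gpx1, which encodes glutathione peroxidase 1, stood at 2504 CPM in the joint granulocytes of S1 and at 2932 to 2951 CPM in those of the other CIA mice with at least 10 cells, a gap of 0.958 of the range.

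The granulocyte share was higher in CIA than in healthy mice by 23.7 percentage points in the joint and differed by -15.7 points in muscle. In muscle it was 7.14%, 28.0%, 15.9% and 16.3% in H3, H4, H6 and H7 and 0.151% to 2.29% in the 6 CIA mice. Every CIA joint lay above every healthy joint and every CIA muscle lay below every healthy muscle, and the difference between the organs was not tested.

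Joint cells without an annotation also carried granulocyte transcripts. S100a8 stood at 102682 CPM in such cells of S1 (66 cells), 66774 CPM in those of S3 (16 cells) and 116129 CPM in those of S5 (59 cells), against 21444 CPM in those of healthy mouse H3 (15 cells). Camp stood at 2969, 4819 and 10244 CPM in the same cells of S1, S3 and S5 and at 3529 CPM in H3.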

How the results depend on the processing

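The signs of all 41 genes called between joint and spleen were kept in every alternative that tested them, and 0 of the single gene values were reversed (441 kept their side of the threshold, 204 lost it and 6 gained it). The count between joint and spleen was 27 without a filter on low counts, 16 with cells thinned to 400 UMIs, 15 with 5 cells or more and 24 in the prefix 2CIA alone, and ranged from 11 to 101 without single libraries. With the replicate block it was 5, with 5 cells or more and the replicate block 10, and with 5 cells or more in the prefix CIA alone 5. Between CIA and healthy joints the count was 1 with plain library size, 1 in 2CIA alone, 1 with 5 cells or more and the prefix as a term, and 0 to 1 without single libraries. For the scores it was 0 to 1. Between joint and muscle it was 4 with plain library size, 3 without the filter, 5 with 5 cells or more (0 with the replicate block added) and 11 to 41 without single libraries. The difference in joint share was 18.3 to 28.4 points without single mice, with exact permutation p of 0.0571 or 0.0952, the smallest these designs allow. The cause of these shifts was not tested, other than that fewer samples or genes entered. The list sums had 144 values within 1 SD of those reported. Most of these left out 1 of 5 mice, which cannot move a mean by 1 SD over those mice, so they are no check. The gelatinase granule list had a mean of 251 CPM without Mmp8, an alternative added later, against 794 CPM with it. No paired analysis was possible for the score, healthy and CIA comparisons because those groups hold different animals. For joint against spleen the prefix 2CIA alone, and in each comparison 5 cells or more combined with a prefix or block, were chosen after seeing the data. Depth limits the mice with few cells: 3 UMIs were worth 675 CPM in H4.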
